A study of Mus musculus with 24 samples.

Results

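Heterotrimeric G proteins were examined through 53 probe sets of 27 genes, out of 22626 probe sets and 12393 singly annotated genes tested on an Affymetrix mouse expression array. A probe set is the array's unit of measurement, several short probes directed at the same transcript. Members were all probe sets whose single annotated gene symbol is that of an alpha subunit (34 probe sets of 14 genes), a beta subunit (9 probe sets of 6 genes, with the beta-like gene Gnb1l) or a gamma subunit (10 probe sets of 7 genes). The rule uses gene symbols alone, but the family was taken up with earlier results of these data known. The alpha genes were Gnas, Gnai1, Gnai2, Gnai3, Gnao1, Gnat1, Gnat2, Gnaz, Gnaq, Gna11, Gna12, Gna13, Gna14 and Gna15. The beta genes were Gnb1 to Gnb5 and Gnb1l, and the gamma genes were Gng2, Gng3, Gng4, Gng10, Gng11, Gng12 and Gng13. Of these genes, 13 were read by 1 probe set and 14 by 2 or more, up to 6 for 1 gene. Another 3 probe sets name a subunit beside a second gene and were not members.

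Ovaries at metestrus were compared between FL1, selected to generation 130 on an index of litter size and litter weight at birth, and DUKsi, an unselected line from the same genetic pool that was inbred by full-sib mating. All animals were young virgin females without treatment, kept in 12 h of light, and each line was sampled as 6 pools of total RNA with 2 arrays per pool, 24 arrays in all. The labels of the samples give 6 animals to a pool and 30 to a line, which cannot both hold for 6 pools, and the study's methods give fewer animals per pool. The lines differ in selection and in inbreeding, and 1 line stands for each, so selection, inbreeding and chance fixation of alleles cannot be told apart. The question was which transcripts differ in the ovary of a line bred for large litters.

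A heterotrimeric G protein consists of an alpha subunit that binds guanine nucleotides and a tightly joined beta-gamma pair. A ligand-bound receptor in the plasma membrane exchanges GDP for GTP on alpha, after which alpha and beta-gamma part and each acts on its own effectors. In the ovary, the receptors for follicle stimulating hormone and luteinizing hormone work mainly through the Gs alpha subunit, adenylyl cyclase and cAMP, and the receptor for prostaglandin F2 alpha works through Gq and phospholipase C. In oocytes, Gs and cAMP help to hold meiosis before the ovulatory signal.

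The results below turn on Gnb1, which encodes the beta 1 subunit. Of the 27 genes, 21 were found among the RefSeq promoter windows. Gnb4 had no window there. For Gnb1 the 250 bases before the annotated start are shown. They are at chr4:155491111-155491360 on the + strand of GRCm38.p6, and 69.2% of them are G or C.

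Gnb1: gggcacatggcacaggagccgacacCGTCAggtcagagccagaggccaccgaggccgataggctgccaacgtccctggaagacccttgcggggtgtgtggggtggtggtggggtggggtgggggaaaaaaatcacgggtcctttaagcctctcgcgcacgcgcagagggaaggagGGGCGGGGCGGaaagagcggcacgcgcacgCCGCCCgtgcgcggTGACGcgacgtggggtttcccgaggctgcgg

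Capitals mark GC boxes (GGGCGG, or CCGCCC on the other strand) and the core of the cAMP response element, CRE (TGACG, or CGTCA on the other strand). The window holds 3 GC boxes, of which 2 share a base, and 2 CRE cores, but no full CRE (TGACGTCA, which contains the core on both strands), no CCAAT (or ATTGG) and no TATAAA (or TTTATA). A GC box was found in 32.7% of 32851 promoter windows of the same length and in 13 of 27 windows of subunit genes (48.1%). These 27 windows belong to the 21 genes found, so some genes count more than once and the shares are of windows. The CRE core was found in 17.8% of all windows and in 6 of the 27 (22.2%), and the full CRE in 1.55% of all windows and in 0 of the 27. CCAAT was present in 33.8% of all windows and in 5 of the 27 (18.5%), and TATAAA in 12.4% and in 4 of the 27 (14.8%). These matches describe letters only, and no binding or promoter activity was measured here.

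Signals are MAS5 values on a linear scale. Means are given ± SD over the 6 pools of a line, fold changes are FL1 over DUKsi, and a probe set was counted as higher or lower when the adjusted p of limma, with Benjamini-Hochberg adjustment over all 22626 probe sets, was under 0.01. A signal under 48.6 was called low, since 20% of all signals were below that mark. As a gauge of RNA integrity, the beta-actin control signal at the 3' end was divided by that at the 5' end, which gave 1.67 ± 0.423 for FL1 against 1.27 ± 0.0522 for DUKsi, with no overlap of the lines (two-sided exact permutation test over the pools, p = 0.00216, the smallest that 6 pools against 6 allow). The same ratio for Gapdh was 1.53 ± 0.42 and 1.28 ± 0.146, and the lines overlapped (exact permutation p = 0.203). The median signal was 221 ± 7.98 and 235 ± 4.95, also with overlap (exact permutation p = 0.0108). Since the beta-actin ratio did not overlap between the lines, fits with it as a covariate cannot fully separate line from that ratio. FL1 pool 3 stood apart with a beta-actin ratio of 2.45, against 1.32 to 1.74 in the other FL1 pools. DUKsi pool 4 stood apart in the markers of oviduct and surface epithelium, whose summed signal was 5333 there and 759 to 1153 in the other DUKsi pools. All measured granulosa, oocyte and luteal markers had means above the low mark in both lines. Single pools of the luteal marker Akr1c18 were below it (lowest 40.8 in FL1 and 22.4 in DUKsi). The summed signal of 4 luteal markers was 12835 to 17440 in FL1 and 4557 to 10245 in DUKsi, that of 7 oocyte markers 6774 to 8994 and 8831 to 10591, and that of 3 granulosa markers 14737 to 16421 and 15301 to 18819.

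Of the 53 subunit probe sets, 1 was higher in FL1 (Gnb4), 3 were lower (all of Gnb1) and 49 were neither. This is 7.55% past the test, where 3.38% of all tested probe sets passed it (1.83% higher, 1.55% lower). With a fold change of at least 1.5 as well, 3 members passed, against a background of 2.32%. In 4 members, the same 4, every pool of a line lay above every pool of the other, again 7.55%, against a background of 4.62%. All 4 belong to the 9 beta probe sets, and they represent only 2 genes, so they are not 4 independent observations. None of the 34 alpha probe sets and none of the 10 gamma probe sets passed in limma, where 2 of each had an unadjusted p under 0.05. The median log2 fold change of the members was -0.02, beside -0.07 for all tested probe sets, and the members ranged from -2.28 to 0.77. In 8 members the mean signal was low in both lines and in 10 it was low in at least 1 line, and for these a missing difference says little. Between pools, the median SD of a member was 0.248 in FL1 and 0.178 in DUKsi on the log2 scale, beside 0.281 and 0.224 for all probe sets.

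**Figure D1:**
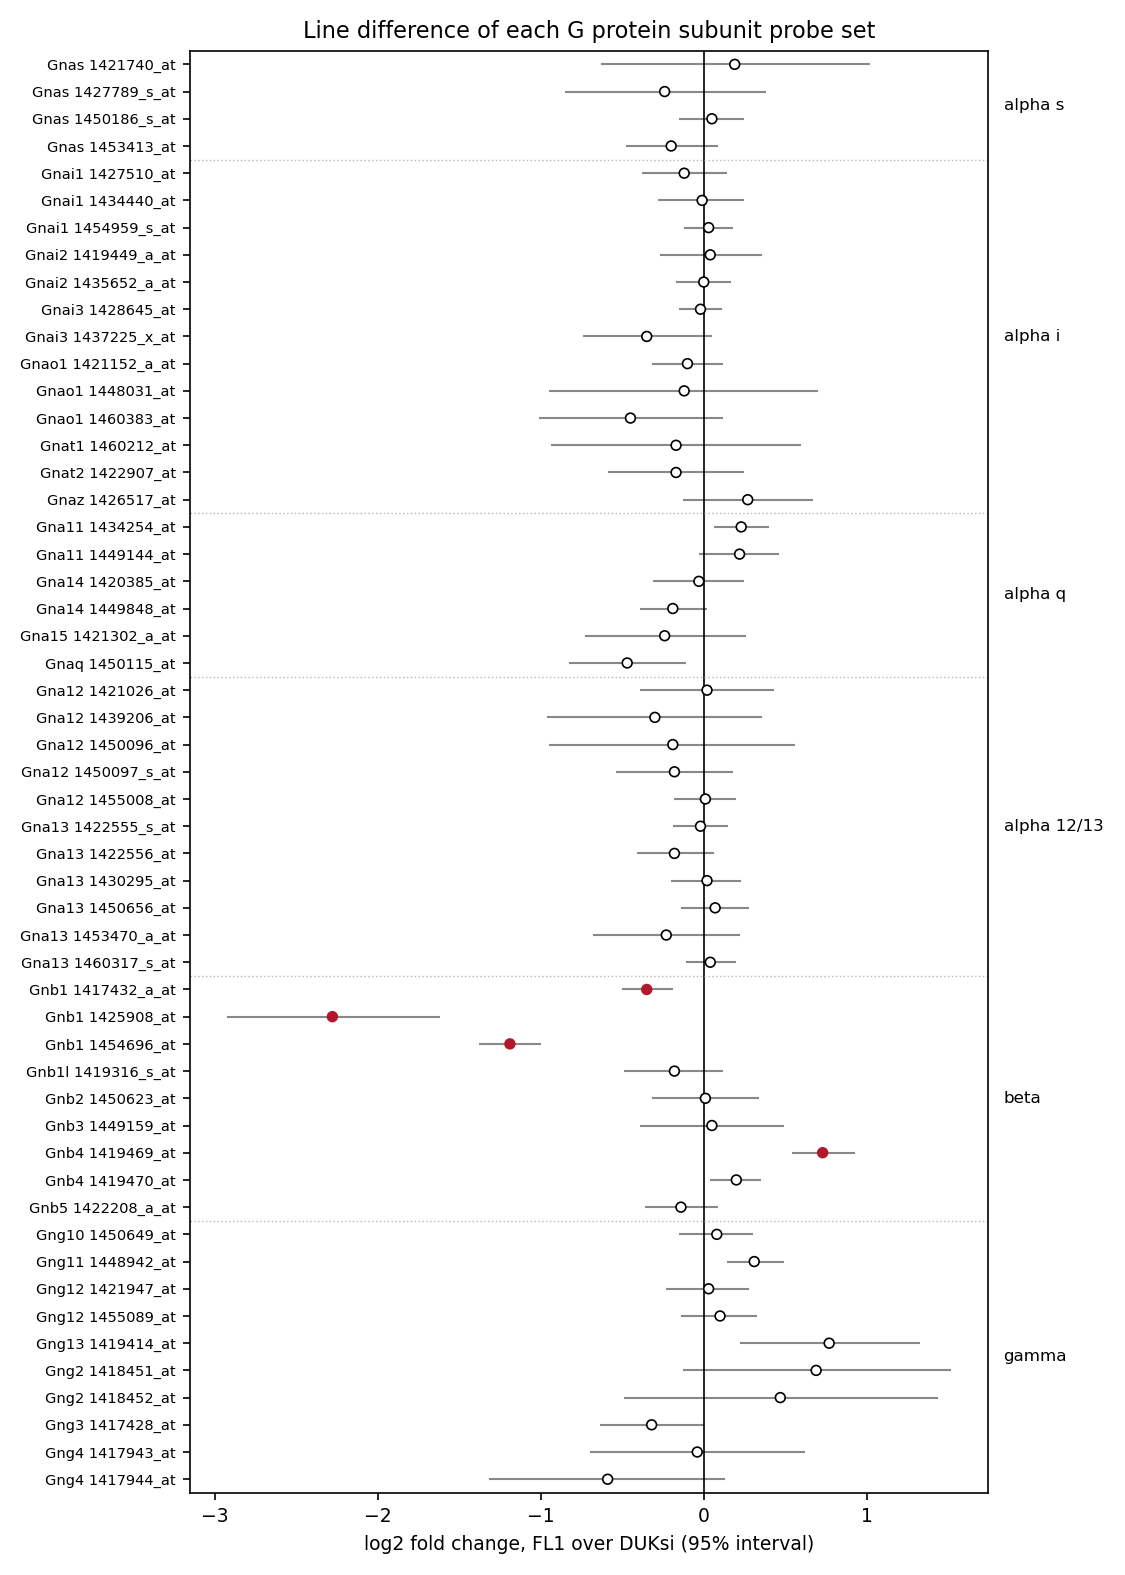
Log2 fold change, FL1 over DUKsi (x axis), of each of the 53 G protein subunit probe sets (y axis), grouped by subunit class, with 95% intervals from limma over 6 pools per line. Red points are the 4 probe sets past an adjusted p of 0.01, 3 of Gnb1 on the left and 1 of Gnb4 on the right, and open points are the other 49, which lie between -0.59 and 0.77.

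Gnb1 was lower in FL1 in all 3 of its probe sets, but by very different amounts. Its product, the beta 1 subunit, is found in most tissues and pairs with many gamma subunits. Probe set 1454696_at had signals of 1316, 1624, 1033, 1286, 1229 and 1222 in FL1 pools 1 to 6, and of 3189, 2914, 3060, 2756, 2706 and 2806 in DUKsi pools 1 to 6. Every FL1 pool lay far below every DUKsi pool, and the same was true of the 12 single arrays of each line (1032 to 1640 against 2694 to 3269). The mean was 1285 ± 193 in FL1 against 2905 ± 188 in DUKsi, a fold change of -2.26 (log2 fold change -1.19, SE 0.0885, 95% interval -1.38 to -1.0, adjusted p = 3.86e-07 from limma). The array-to-array SD within a pool was only 0.0764 on the log2 scale. In whole ovaries, fewer cells of a type and less RNA per cell cannot be told apart, here and in all results that follow. This probe set is among those the study chose on these samples, as is 1419469_at of Gnb4 below, so their direction here is no independent evidence.

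Probe set 1425908_at of Gnb1 had 38.7, 19.9, 80.6, 37.3, 24.8 and 65.8 in the FL1 pools. In the DUKsi pools it had 142, 203, 162, 259, 238 and 171. The lines did not overlap, nor did their arrays (17.8 to 104 against 138 to 294). The mean was 44.5 ± 23.8 in FL1 against 196 ± 45.8 in DUKsi, a fold change of -4.4 (log2 fold change -2.28, SE 0.309, 95% interval -2.93 to -1.62, adjusted p = 0.00021 from limma). Since the FL1 mean is a low signal, the size of this fold is poorly determined: with a constant added before the logarithm, the log2 fold change was -1.41 (adjusted p = 7.66e-05). The array-to-array SD within a pool was 0.455 on the log2 scale.

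The third Gnb1 probe set, 1417432_a_at, changed least. It had 963, 1055, 835, 982, 891 and 882 in the FL1 pools and 1127, 1260, 1296, 1115, 1090 and 1237 in the DUKsi pools. The highest FL1 pool was just below the lowest DUKsi pool, and single arrays of the lines overlapped (775 to 1103 against 967 to 1333). The mean was 935 ± 80.2 in FL1 against 1187 ± 87.2 in DUKsi, a fold change of -1.27 (log2 fold change -0.35, SE 0.0733, 95% interval -0.50 to -0.19, adjusted p = 0.00796 from limma). This call was fragile. It was lost in 21 of 29 alternatives, among them the omission of any single pool other than FL1 pool 2. It was also lost with the second array of each pool alone (-0.23, adjusted p = 0.185) or after scaling to the same median (-0.26, adjusted p = 0.0849). With the beta-actin ratio as a covariate it was -0.26 (adjusted p = 0.0536). The log2 fold change remained below 0 in all 29.

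Whether the Gnb1 probe sets differed in their line effect was tested on the log2 ratio of 2 probe sets within a pool, with 4 pairs over both genes. The ratio of 1454696_at to 1417432_a_at was 0.45 ± 0.105 in FL1 against 1.29 ± 0.115 in DUKsi, a difference of -0.84 (two-sided exact permutation test, p = 0.00216, adjusted p = 0.00289). The ratio of 1425908_at to 1417432_a_at differed by -1.93 between the lines (exact permutation p = 0.00216, adjusted p = 0.00289). These 2 differences remained past 0.05 when any single pool was left out. The ratio of 1454696_at to 1425908_at differed by 1.09 (exact permutation p = 0.0303, adjusted p = 0.0303), which fell to 0.25 with the constant added (exact permutation p = 0.357). These Gnb1 pairs were chosen after the values of the probe sets were seen. Which stretch of the transcript each probe set reads, and whether the lines differ in sequence there, was not analysed here.

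**Figure D2:**
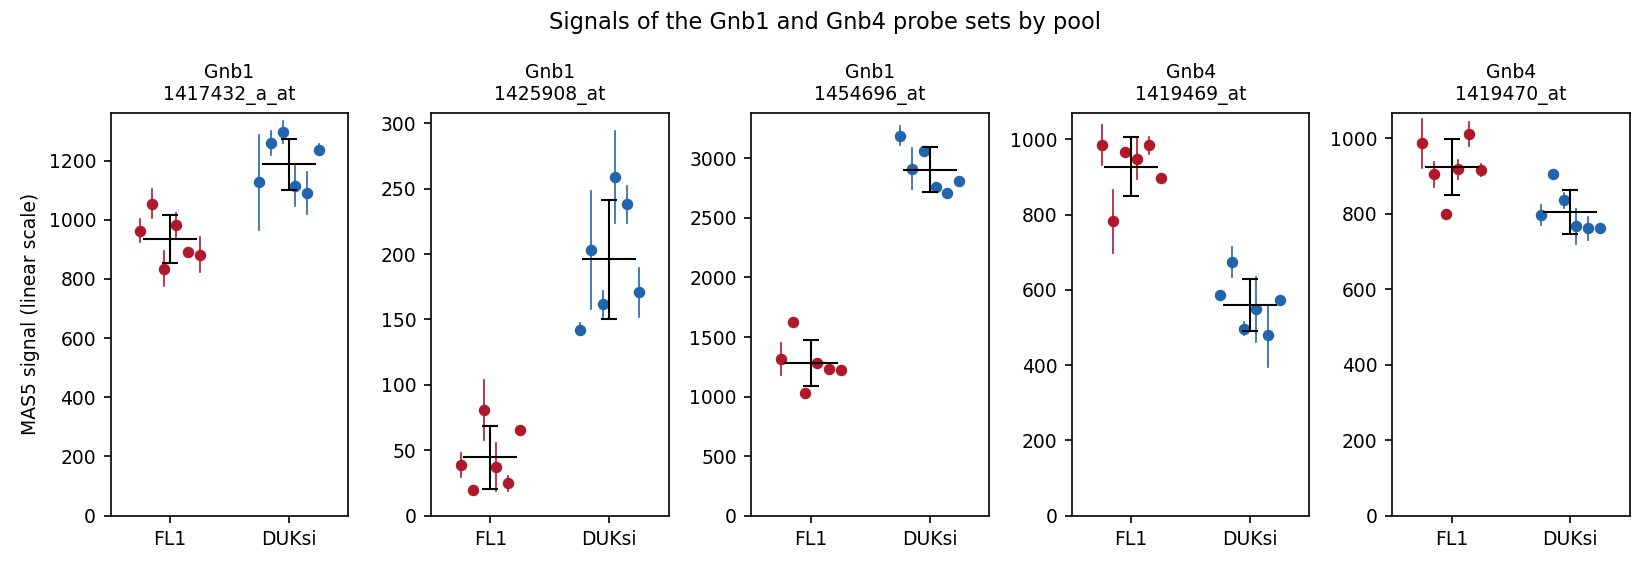
MAS5 signal (y axis, linear scale from 0, separate for each panel) of the 3 Gnb1 and 2 Gnb4 probe sets in FL1 (red) and DUKsi (blue). Dots are the 6 pools of a line in the order 1 to 6, thin lines join the 2 arrays of a pool, and black bars give mean ± SD. All Gnb1 panels have the FL1 pools below the DUKsi pools. For Gnb4, 1419469_at has the FL1 pools above the DUKsi pools, and 1419470_at overlaps.

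Gnb4, which encodes the beta 4 subunit, was higher in FL1 in 1 of its 2 probe sets. Probe set 1419469_at had 984, 782, 967, 948, 984 and 897 in the FL1 pools and 587, 674, 497, 548, 479 and 572 in the DUKsi pools. All FL1 pools lay above all DUKsi pools, while single arrays came to overlap slightly (699 to 1038 against 396 to 714). The mean was 927 ± 78 in FL1 against 559.5 ± 70.2 in DUKsi, a fold change of 1.66 (log2 fold change 0.73, SE 0.0906, 95% interval 0.54 to 0.93, adjusted p = 8.42e-05 from limma). It passed in all 29 alternatives.

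The other Gnb4 probe set, 1419470_at, had 986, 905, 799, 918, 1011 and 915 in the FL1 pools and 797, 906, 835, 766, 761 and 761 in the DUKsi pools. The lines overlapped through FL1 pools 2 and 3 and DUKsi pools 2 and 3. The mean was 922 ± 74.1 in FL1 against 804 ± 57.8 in DUKsi, for a log2 fold change of 0.20 (95% interval 0.04 to 0.35, adjusted p = 0.137 from limma). The log2 ratio of 1419469_at to 1419470_at was 0.01 ± 0.158 in FL1 against -0.53 ± 0.142 in DUKsi. The difference of 0.54 had p = 0.00216 by the exact permutation test (adjusted p = 0.00289) and ran from 0.48 to 0.58 when any single pool was left out. The larger difference of 1419469_at was thus not shared in full by the second probe set. By a rule set beforehand, this pair was tested because 1 probe set passed and the other did not in these same data. Its p-value is therefore not independent of that call.

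The values of Gnb1 and Gnb4 were set beside the measures that moved with line. With the beta-actin ratio as a covariate, the log2 fold change was -0.99 for 1454696_at (adjusted p = 3.35e-06), -2.99 for 1425908_at (adjusted p = 1.16e-05) and 0.69 for 1419469_at of Gnb4 (adjusted p = 0.00151, all from limma). Without FL1 pool 3 and DUKsi pool 4 the values were -1.14, -2.40 and 0.72, all past the test. For the other Gnb4 probe set, 1419470_at, the value was 0.29 with the covariate (adjusted p = 0.0324 from limma), not past the test. Without these pools it was 0.22 (adjusted p = 0.0708 from limma). How far the Gnb4 probe sets differ with the covariate was not tested. Among the marker sums, that of the luteal markers did not overlap between the lines. Its largest part was Cyp11a1 (mean 11047 in FL1 and 5762 in DUKsi), which the study had named, while Star and Akr1c18 did not pass the test. The sum of oviduct and surface epithelium markers was 1385 to 1705 in FL1. In DUKsi it was 759 to 1153 apart from pool 4, which had 5333. The summed signal of 6 endothelial markers was 3055 to 3672 in FL1 and 2537 to 3199 in DUKsi. The part of cell composition in the Gnb1 and Gnb4 differences was not tested.

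**Figure D3:**
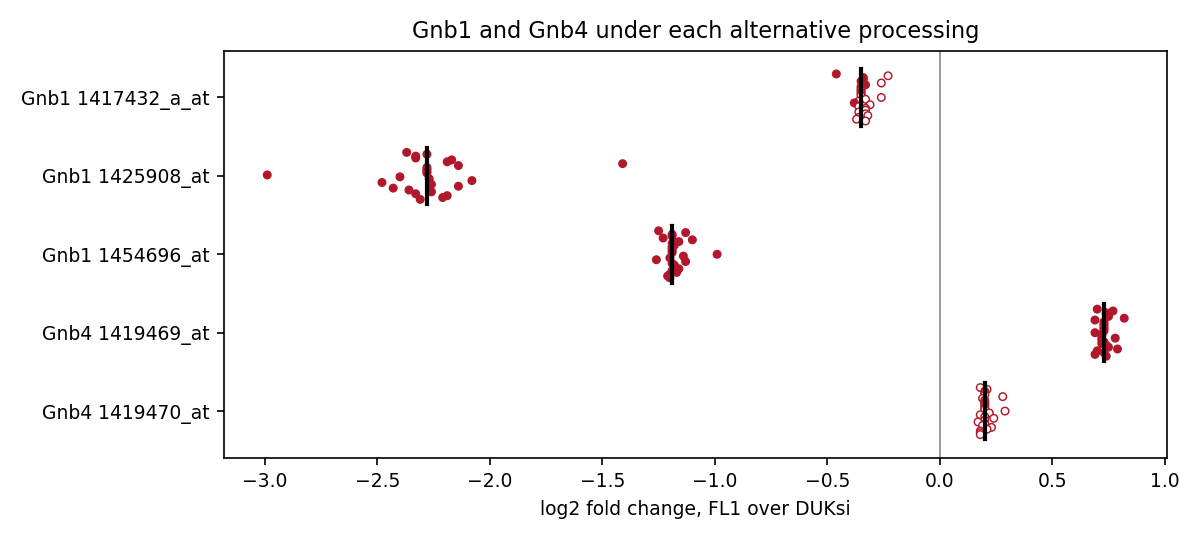
Log2 fold change, FL1 over DUKsi (x axis), of the 5 Gnb1 and Gnb4 probe sets (y axis) under each alternative processing, with other arrays, scalings, tests or pools left out. Each circle is 1 alternative, filled where the adjusted p was under 0.01, and black bars mark the reported values. The Gnb1 probe sets stay below 0 and the Gnb4 probe sets above 0, and open circles appear for Gnb1 1417432_a_at and Gnb4 1419470_at only.

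Genes beside Gnb1 and Gnb4 were examined as well. Of the 10 nearest measured genes of Gnb1 in RefSeq gene order, 5 on each side, 0 passed the test in limma, with log2 fold changes from -0.22 to 0.61. Nadk, which encodes NAD kinase and is the next measured gene after Gnb1, had 2333 ± 197 in FL1 against 1987 ± 165 in DUKsi, for a log2 fold change of 0.23 (adjusted p = 0.0689). Of the 10 nearest of Gnb4, 0 passed as well, with log2 fold changes from -1.01 to 0.14. The mitofusin gene Mfn1, on one side of it, had 668 ± 60.3 and 806 ± 68.7 (-0.27, adjusted p = 0.0582), and Actl6a, which encodes a subunit of chromatin remodelling complexes, on the other side had 716 ± 262 and 942 ± 118 (-0.46, adjusted p = 0.165). These 3 neighbours were named with their values already known. Beside 3.38% of all tested probe sets past the test, 0 of 10 genes says little. The largest differences came from low signals in both lines. They were Gabrd near Gnb1 (47.5 and 32.4) and Pex5l near Gnb4 (25.3 and 45.6).

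The other beta genes did not pass the test. Gnb2, the beta 2 subunit, had 1628 ± 454 in FL1 against 1571 ± 169.8 in DUKsi, for a log2 fold change of 0.01 (95% interval -0.32 to 0.34, adjusted p = 0.981). Its FL1 pools had 2270, 1955, 1050, 1667, 1622 and 1206, a wider range than the 1319 to 1831 of DUKsi. The lowest of them was FL1 pool 3, the pool with the highest actin ratio. With that ratio as a covariate the log2 fold change of Gnb2 was 0.43 (adjusted p = 0.0183 from limma), again not past the test. Gnb5, whose product pairs with regulators of G protein signaling rather than with the common gamma subunits, had 598 ± 83.8 and 655 ± 77.2 (-0.14, 95% interval -0.36 to 0.09, adjusted p = 0.518). Gnb3, known from cone photoreceptors and taste cells, had 72.3 ± 12.2 and 71 ± 16.7 (0.05, adjusted p = 0.928). Gnb1l, a WD-repeat gene named for its likeness to beta subunits, had 94.7 ± 11.6 and 107 ± 8.59 (-0.18, 95% interval -0.49 to 0.12, adjusted p = 0.518).

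The alpha subunits gave no call, and the intervals of the brightest Gnas, Gnai1, Gnai2 and Gnai3 probe sets were narrow and included 0. Gnas encodes Gs alpha, which stimulates adenylyl cyclase. Its probe set 1450186_s_at had 7698 ± 1077 in FL1 against 7402 ± 642 in DUKsi, for a log2 fold change of 0.05 (95% interval -0.15 to 0.25, adjusted p = 0.823), so a change by the factor 1.5 lies outside the interval. With the beta-actin ratio as a covariate, the value of 1450186_s_at was 0.26 (adjusted p = 0.0513 from limma), not past the test. The other 3 Gnas probe sets ran from -0.24 to 0.19 on the log2 scale, and in 2 of them both lines were at low signals. The Gnas locus gives rise to several transcripts by different promoters, and the probe sets need not read the same ones.

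The inhibitory class, read by 13 probe sets of 7 genes, ran from -0.45 to 0.27, with a lowest adjusted p of 0.323. Gnai1, Gnai2 and Gnai3 encode Gi alpha subunits, which restrain adenylyl cyclase. Gnai2 1435652_a_at had 3317 ± 378 in FL1 against 3294 ± 212 in DUKsi, for a log2 fold change of 0.00 (95% interval -0.17 to 0.17, adjusted p = 0.985). Gnai3 1428645_at had 3003 ± 210.0 and 3043 ± 158 (-0.02, 95% interval -0.15 to 0.11, adjusted p = 0.89), and Gnai1 1454959_s_at had 1102 ± 87.7 and 1079 ± 74.3 (0.03, 95% interval -0.12 to 0.18, adjusted p = 0.861). After scaling to the same median, Gnai3 had 0.07 and Gnai1 had 0.12, both not past the test. With the beta-actin ratio as a covariate, Gnai2 had -0.12, Gnai3 0.01 and Gnai1 -0.08, none of them past the test. Gnao1, known from neurons, was read by 3 probe sets with log2 fold changes from -0.45 to -0.10. Gnat1 and Gnat2, the alpha subunits of rod and cone photoreceptors, had -0.17 each (adjusted p = 0.841 and 0.686), the former from low signals in both lines (22.7 ± 8.19 and 26.3 ± 11.8). Gnaz had 106 ± 24.2 and 87.7 ± 17.8 (0.27, adjusted p = 0.464).

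The Gq class held the alpha probe sets with the lowest adjusted p. Gna11, a close relative of Gq alpha that also activates phospholipase C beta, had 1062 ± 91.3 in FL1 against 906 ± 87.8 in DUKsi in probe set 1434254_at (log2 fold change 0.23, 95% interval 0.06 to 0.40, adjusted p = 0.103). Its second probe set, 1449144_at, had 1286 ± 201 and 1109 ± 180.3 (0.22, 95% interval -0.03 to 0.46, adjusted p = 0.319). With the beta-actin ratio as a covariate, 1449144_at had 0.40 (adjusted p = 0.0482 from limma), not past the test. The probe set of Gnaq itself, 1450115_at, pointed the other way, with 161, 127, 266, 154, 129.7 and 155 in the FL1 pools and 234, 222, 218, 176, 222 and 269 in the DUKsi pools. With the exception of FL1 pool 3, all FL1 pools were below all DUKsi pools. The mean was 165 ± 51.2 in FL1 against 223 ± 30.1 in DUKsi, for a log2 fold change of -0.47 (95% interval -0.83 to -0.11, adjusted p = 0.124).

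The result for Gnaq thus rested on FL1 pool 3, which also had the highest beta-actin ratio. Without that pool the log2 fold change was -0.62 (adjusted p = 0.00724), without FL1 pool 3 and DUKsi pool 4 it was -0.68 (adjusted p = 0.00347), and with the actin ratio as a covariate it was -0.81 (adjusted p = 0.00746, all from limma). These fits either leave out FL1 pool 3 or adjust for the ratio in which it stood apart, so they are not separate evidence. No other left-out pool brought Gnaq past the test. Gna14, another alpha subunit of this class, had 344 ± 43.2 in FL1 against 389 ± 25.2 in DUKsi in 1449848_at (-0.19, 95% interval -0.39 to 0.02, adjusted p = 0.315) and -0.03 in its second probe set (adjusted p = 0.923). With the actin ratio as a covariate, Gna14 1449848_at had -0.32 (adjusted p = 0.0566 from limma), not past the test. Gna15, known from blood cells, had 67.7 ± 23.3 and 77.7 ± 16.7 (-0.24, adjusted p = 0.619).

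Gna12 and Gna13, which form an alpha class of their own, were read by 11 probe sets with log2 fold changes from -0.30 to 0.07 and a lowest adjusted p of 0.403. Gna13 1422555_s_at had 1379 ± 101 in FL1 against 1401 ± 149.6 in DUKsi (-0.02, 95% interval -0.19 to 0.15, adjusted p = 0.923). Gna12 1455008_at had 606 ± 56.6 and 603 ± 63.4 (0.01, 95% interval -0.18 to 0.20, adjusted p = 0.971). The other Gna12 probe sets included 2 at low signals in both lines.

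Among the gamma subunits, which anchor the beta-gamma pair in the membrane by a lipid group, 7 of 10 probe sets had a log2 fold change above 0 and none passed the test. The lowest adjusted p was that of Gng11, a farnesylated gamma subunit. Its pools had 1243, 1295, 1274, 1149, 1044 and 1362 in FL1 and 930.4, 873, 1064, 1139, 982 and 945 in DUKsi. The lines overlapped by DUKsi pools 3 and 4, which exceeded the lowest FL1 pool. The mean was 1228 ± 114 in FL1 against 989 ± 97 in DUKsi, for a log2 fold change of 0.31 (95% interval 0.14 to 0.49, adjusted p = 0.0298 from limma). Gng11 passed with all 24 arrays and the pool as a random block (0.31, adjusted p = 0.00192) and after scaling to the same median (0.40, adjusted p = 0.00603). The random-block fit takes a single within-pool correlation, 0.337, for all probe sets. For Gng11 the log2 SD between pools was 0.138 in FL1 and 0.139 in DUKsi, and only 0.0832 between arrays. The p of that fit may therefore be too small for Gng11.

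Gng12 1455089_at had 1032 ± 117 in FL1 against 972 ± 187 in DUKsi, for a log2 fold change of 0.10 (95% interval -0.14 to 0.33, adjusted p = 0.674). DUKsi pool 4 had 1352 in it, beside 871 to 919.9 in the other DUKsi pools, and 1410 in the second Gng12 probe set, beside 781 to 916. This is the pool with the high signal of oviduct and surface epithelium markers, whose part in the Gng12 value was not tested. Gng10 had 955 ± 123 and 905 ± 126 (0.08, 95% interval -0.15 to 0.30, adjusted p = 0.739).

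The 3 widest differences among members not past the test, outside the genes described above, were all in gamma probe sets. Gng13, known from taste cells and retina, had 149 ± 33.7 in FL1 against 91.5 ± 29.8 in DUKsi (0.77, 95% interval 0.22 to 1.33, adjusted p = 0.0981). Its lowest FL1 pool had 112 and its highest DUKsi pool 116, while DUKsi pool 2 had only 35.6. Gng2 1418451_at had 45.8 ± 29.1 and 25.7 ± 10.7 (0.69, 95% interval -0.13 to 1.52, adjusted p = 0.347), both low signals, and its second probe set was likewise at low signals (0.47, adjusted p = 0.611). Gng4 1417944_at had 75.3 ± 31.3 and 109 ± 33.2 (-0.59, 95% interval -1.32 to 0.13, adjusted p = 0.363). Gng3 had 249 ± 57.3 and 307 ± 46.5 (-0.32, adjusted p = 0.259).

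Receptors, effectors and regulators around the subunits were read from 7 gene lists, with 1 probe set per gene, the one with the highest mean signal. Of 88 genes measured, 3 were higher in FL1 and 2 lower, which is 5.68% beside the 3.38% of all probe sets, with a median log2 fold change of -0.09 beside -0.07. That base includes dim probe sets, while each list gene was read by its brightest. With the dimmest 40% left out, 782 probe sets passed, against 764 of all, so the share among brighter probe sets is larger than 3.38%. The 5.68% is therefore not shown to be an excess. The count of higher genes ran from 1 to 4 when any single pool was left out. It was 1 without FL1 pool 4 or FL1 pool 6, and it was also 1 with the beta-actin ratio as a covariate.

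Of 33 receptors that couple to G proteins, 2 were higher, 1 was lower and 30 were neither (median -0.18). Ptgfr, the Gq-coupled receptor for prostaglandin F2 alpha and a marker of luteal cells, had 1153 ± 269 in FL1 against 368 ± 174 in DUKsi, for a log2 fold change of 1.82 with an SE of 0.349 (adjusted p = 0.00373). The study had named Ptgfr on these samples, so its direction here is no independent evidence. In the study's qPCR the Ptgfr difference was significant between pools but not between individual animals. Ptger2, a Gs-coupled receptor for prostaglandin E2, had 495 ± 41.4 and 344 ± 43.8 (0.53, SE 0.101, adjusted p = 0.00349). F2r, the thrombin receptor, which couples to Gq, Gi and G12/13, was lower with 742 ± 85.7 and 1178 ± 131 (-0.67, SE 0.0919, adjusted p = 0.000244). Fshr, the receptor for follicle stimulating hormone, had 511 ± 57.2 and 530.4 ± 58.2 (-0.05, adjusted p = 0.807, all from limma).

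Of 7 adenylyl cyclases, which make cAMP, 1 was lower and 6 were neither (median -0.11). Adcy7, a cyclase stimulated by Gs alpha and further by beta-gamma, had 718 ± 90.8 in FL1 against 1124 ± 126 in DUKsi, with no overlap of the lines (log2 fold change -0.65, SE 0.0951, adjusted p = 0.000437). The study had chosen this probe set on these samples, which is no independent evidence of its direction. Adcy2, also a cyclase that beta-gamma can stimulate, had 376 ± 84.7 and 256 ± 21 (0.53, adjusted p = 0.0163 from limma), without overlap of the lines but not past the test. Adcy2 was named with its value already known.

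Of 13 chaperones and exchange regulators of the subunits, 1 was higher and 12 were neither (median -0.01). Pdcl3, a phosducin-like protein of the family that assists folding with the chaperonin CCT, had 894 ± 100.5 in FL1 against 645 ± 24.8 in DUKsi (0.47, SE 0.0775, adjusted p = 0.00127). Pdcl, the family member that assists assembly of beta-gamma, had 929.7 ± 121 and 898 ± 60 (0.04, adjusted p = 0.834). Ric8a, an exchange factor and chaperone of alpha subunits, had 343 ± 22.5 and 345 ± 17.7 (-0.01, adjusted p = 0.957). Gpsm1, a regulator that holds Gi alpha subunits in their GDP-bound form, had 536 ± 82.9 and 734 ± 82.2 (-0.46, adjusted p = 0.0164, all from limma). Its lines did not overlap, but it was not past the test.

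In the remaining 4 lists no gene passed the test in limma. Among 10 genes of phospholipase C beta and the path below Gq (median -0.04), Prkcd, a protein kinase C, had 1667 ± 260.2 and 2078 ± 120.1 (-0.33, adjusted p = 0.0411). The inositol trisphosphate receptor gene Itpr2 had 869 ± 89.5 and 824 ± 132 (0.09, adjusted p = 0.708). Among 12 genes of protein kinase A and cAMP phosphodiesterases (median -0.08), the regulatory subunit Prkar1a had 3223 ± 426 and 3257 ± 314 (-0.02, adjusted p = 0.929), and the catalytic subunit Prkacb had 1495 ± 93.1 and 1635 ± 64.9 (-0.13, adjusted p = 0.228).

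Among 7 effectors of beta-gamma (median -0.16), the potassium channel gene Kcnj3 had 318 ± 107 and 343 ± 57.1 (-0.16, adjusted p = 0.703), and Pik3cg, a phosphoinositide 3-kinase, had 247 ± 28.5 and 204 ± 17.8 (0.27, adjusted p = 0.18). Among 6 receptor kinases and arrestins (median -0.03), Grk6 had 427 ± 74.8 and 499 ± 37.8 (-0.24, adjusted p = 0.242), and Grk5 had 424 ± 51 and 425 ± 29.1 (-0.01, adjusted p = 0.96, all from limma).

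**Figure D4:**
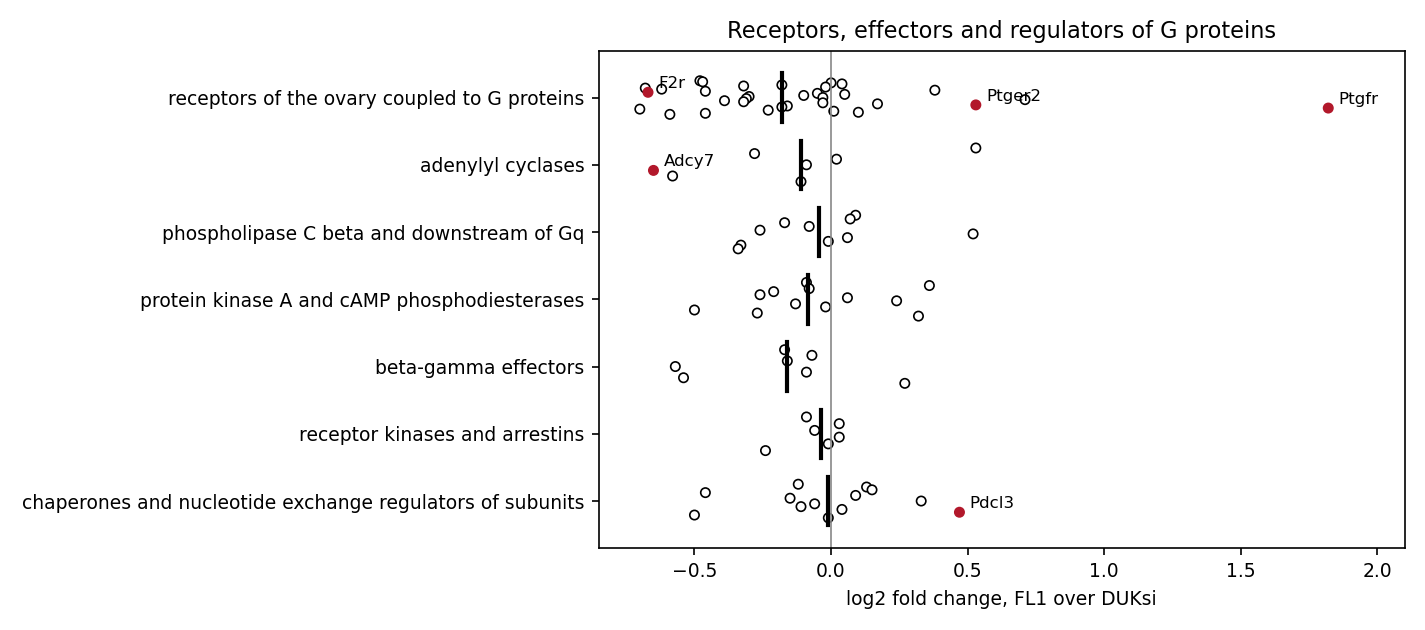
Log2 fold change, FL1 over DUKsi (x axis), of 88 genes in 7 lists of the pathway (y axis). Each circle is 1 gene, black bars are list medians, which lie between -0.18 and -0.01, and the 5 genes past an adjusted p of 0.01 are red and named, from F2r and Adcy7 on the left to Ptgfr on the right.

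Markers of the cell types an ovary can hold moved with line as well. Of 52 marker genes in 12 lists, 6 were higher in FL1 and 2 lower (15.4%), beside 3.38% of all probe sets tested (1.83% higher and 1.55% lower). The markers too were read by their brightest probe sets, so this base, which includes dim ones, is not a like one. Of 4 luteal markers, 2 were higher (Ptgfr and Cyp11a1), with a list median of 1.70. The study had named both genes on these samples. The other calls were single genes of their lists, whose remaining members did not pass the test. Pecam1 was the 1 of 6 endothelial markers that was higher (list median 0.25). Of 4 markers of theca and stroma, Pdgfra was higher while the list median was -0.23, with Cyp17a1 at -0.62 (adjusted p = 0.0985 from limma). Of 2 blood markers Alas2 was higher, with a highest pool signal of 91.5, and Hba-a1 stood at -0.36 on the log2 scale (adjusted p = 0.655 from limma). Of 5 markers of oviduct and surface epithelium, Upk3b was higher and the list median was 0.16, with Ovgp1 at -0.80 (adjusted p = 0.441 from limma). Zp3 was the 1 of 7 oocyte markers that was lower (list median -0.26), and Myl9 the 1 of 6 smooth muscle markers that was lower (list median 0.02). No marker of granulosa, pericytes, macrophages, lymphocytes or neurons passed the test in limma. The count of higher markers ran from 2 to 6 when any single pool was left out. It was 2 without FL1 pool 4 or 6, and 3 without FL1 pool 1, FL1 pool 2, DUKsi pool 2 or DUKsi pool 6. Their part in the subunit results was not tested.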

How the data were processed

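Ovarian RNA pools of FL1 and DUKsi (6 per line, 2 arrays each) had been hybridized to Affymetrix mouse expression arrays. The authors deposited MAS5 signals, intensity values on a linear scale that they had scaled to a common target. The mean of each array, trimmed by 2% of the probe sets at each end, was 500.1, array medians ran from 212 to 244.5, and single signals from 0.1 to 26218. The number of arrays limits the precision. The MAS5 version is not given in the labels, and neither single-probe data nor the authors' qPCR values were analysed here. No array repeated another, and all sample columns were used.

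The arrays of each pool were averaged, and log2 values of 12 pools were fitted with limma 3.58.1 (R 4.3.3, linear fit, empirical Bayes with trend). The 64 controls were left out, and p-values were adjusted by Benjamini-Hochberg over 22626 probe sets. Of these, 20380 had 1 gene symbol, 691 several and 1555 none in the platform annotation. A probe set passed at an adjusted p under 0.01. The study's methods used a t-test with q-values, a 1.5-fold threshold and pairwise comparisons. The q-values and the pairwise comparisons were not repeated, and the t-test was adjusted by Benjamini-Hochberg here. Differences between probe sets and RNA quality were tested by exact permutation over the pools, and single pools were checked with Dixon's ratio. The fit was tested on simulated data.

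Members past the test or without overlap, and other probe sets of their genes, were named with all pools. Of each alpha family, of beta and of gamma, the 3 genes of highest signal were named, with the 3 largest differences not past the test. Of each pathway list, up to 4 genes past the test or else 2 of highest signal were named. Others, such as Gnao1, Gnaz, Gng3, Fshr, Adcy2, Pdcl, Ric8a and Gpsm1, were added as context. A further gene list is not reported here. Members and lists were chosen with earlier results of these data known. Alternatives were other arrays, scalings, constants, filters, the methods' t-test, other limma settings, the actin ratio as a covariate and pools left out. The Gnb1 pairs, the neighbours and the repeated counts without overlap were added after seeing the data. RefSeq order and promoter windows are those of GRCm38.p6. The build and annotation used by the authors are not given in the sources used here.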

Additional observations from a re-analysis of the deposited data

Results flagged for a closer look

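Among 78 groups of 6 pools that were checked for a value far from the others, 4 had such a value, and chance alone gives about 1 in 20. Gnai2 1435652_a_at had 2585 in FL1 pool 1, below the 3323 to 3666 of the other FL1 pools. The ratio of its signal to that of the other Gnai2 probe set was 1.49 in this pool and 4.48 in FL1 pool 3, against 1.9 to 2.65 in the other FL1 pools and 2.05 to 2.75 in DUKsi. Gnaq 1450115_at had 266 in FL1 pool 3, above the 127 to 161 of the other FL1 pools. The beta-actin ratio of that pool was 2.45, against 1.32 to 1.74, and its Gapdh ratio was 2.31, against 1.13 to 1.67. Gng12 1455089_at had 1352 in DUKsi pool 4, above the 871 to 919.9 of the other DUKsi pools. The summed signal of the oviduct and surface epithelium markers was 5333 in that pool, against 759 to 1153 in the other DUKsi pools, and its part in the Gng12 value was not tested.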

How the results depend on the processing

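Over the 29 alternatives, Gnb4 1419469_at ran from 0.69 to 0.82 and Gnb1 1454696_at from -1.26 to -0.99, and both passed each time. Gnb1 1425908_at, which the filter on dim probe sets removed, passed in 28 of 28 (-2.99 to -1.41). Members higher in FL1 numbered 1 but 2 with 24 arrays and a random block, median scaling, the actin covariate or an adjusted p under 0.05 (1 without any single pool), and members lower 2 to 4. The second higher member was Gng11 in these settings except the actin covariate, with which Gng11 did not pass. With that covariate 2 members were higher and 4 lower, and these include members whose covariate values are not given here. The number past the test among all probe sets, 764, was 468 with the second array, 1278 with 24 arrays, 507 by the methods' t-test, 1241 with the actin covariate, 1564 at 0.05 and 573 to 943 without single pools, with the lowest for DUKsi pool 2 and the highest for FL1 pool 3. Median scaling moved the median log2 fold change of all probe sets by 0.09 and the split of calls from 413 higher and 351 lower to 634 and 229. Pathway genes lower, 2, were 4 with the actin covariate, 5 at 0.05 and 2 to 3 without single pools, and those higher, 3, were 1 with the actin covariate and 1 to 4 without single pools. Markers lower, 2, were 1 by the methods' t-test, 4 at 0.05 and 2 to 3, and those higher, 6, were 3 with the actin covariate and 2 to 6. The difference of Gnb1 1454696_at and 1425908_at, 1.09, was 0.25 with a constant added and 0.82 to 1.36 without single pools. It lost the 0.05 level when FL1 pool 1, 2, 4 or 5 was left out, and likewise for DUKsi pools 4 and 5 (exact permutation p up to 0.0606). The other differences between probe sets ran, without single pools, from -0.88 to -0.80, from -2.17 to -1.70 and, for Gnb4, from 0.48 to 0.58. With pool numbers as a replicate block, 564 probe sets passed, members higher were 1 and lower 2, and Gnb1 1417432_a_at had -0.35 (adjusted p = 0.0324 from limma). The numbers did not pair the samples: same-numbered pools correlated at -0.264 to 0.167 in their deviations, and 0 of 12 correlated best with their own number. The causes were not tested.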
